A study of Mus musculus with 6 samples.

Results

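The genes described here encode the enzymes of glycolysis, the isozymes that stand in for each other at single steps, the kinases that steer the pathway, and the carriers that bring glucose into the cell and lactate out of it. They were chosen by name, as a list of 36 genes, and all 36 had a row among the 18169 genes of the expression table. Of these, 31 passed the filter on low counts and were tested, among 12286 genes tested in all. The 5 that did not pass were *Slc2a3*, *Hk3*, *Hkdc1*, *Ldhb* and *Pdk3*. The samples were Hepa 1-6 cells, an established mouse hepatoma line that the labels call mouse hepatocyte, treated with Shh (3 libraries) or with vehicle (3 libraries), and poly(A) RNA was sequenced. Shh, sonic hedgehog, is the secreted ligand of the Hedgehog pathway, and the comparison asks which transcripts differ after exposure of the cells to it. No source used here states the dose or the duration for these libraries. Whether replicate libraries stem from separate cultures is likewise not stated, and p-values therefore measure only a spread between libraries that could be technical. The RNA is of whole cultures, in which fewer cells expressing a gene and less RNA per cell cannot be told apart.

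Glycolysis turns glucose into pyruvate, which lactate dehydrogenase reduces to lactate or the pyruvate dehydrogenase complex passes on to mitochondria. The adult liver is known for its own set of carriers and isozymes, such as the glucose carrier GLUT2 (*Slc2a2*) and liver pyruvate kinase (*Pklr*), which suit an organ that both uses and releases glucose. Hepatoma cells commonly express the forms found in most other tissues instead, with GLUT1, hexokinase 2, aldolase A and pyruvate kinase M.

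The libraries held 20253781 to 20291075 estimated counts with Shh and 20278619 to 20335463 with vehicle. Shh replicate 2 stood apart, its chi-square against the vehicle libraries being 9.23 to 11.5 for each degree of freedom, while Shh replicate 1 differed from them by 2.20 to 2.67 and the vehicle libraries from each other by 1.71 to 2.30. The hepatocyte and epithelial markers *Alb*, *Afp*, *Hnf4a*, *Krt8* and *Krt18* were abundant in all 6 libraries, with *Alb* at 484 to 506 FPKM with Shh and 488 to 498 FPKM with vehicle. *Ttr* stayed under 1 FPKM in every library and *Serpina1a* was at 0 to 0.09 FPKM, so the mature hepatocyte program was present in part. FPKM are counts scaled for transcript length and library size, and they are the scale used here wherever the levels of different genes are compared. The Hedgehog response genes *Ptch1* and *Gli1* had log2 fold changes of 0.036 or less, Shh over vehicle. Markers of stellate cells and fibroblasts (6 of 6 listed genes present) summed to 11.2, 4.03 and 4.13 FPKM in Shh replicates 1, 2 and 3, against 5.27 to 7.92 FPKM with vehicle, and 5 of the 6 were highest in Shh replicate 1. The defining stellate gene *Lrat* was at 0.01 FPKM or less throughout, and the leukocyte gene *Ptprc* reached 0.28 FPKM in Shh replicate 1 and at most 0.08 FPKM elsewhere. Of the other macrophage markers, *Cd68* lay at 9.80 to 12.75 FPKM over the 6 libraries, while *Adgre1* and *Csf1r* stayed under 1 FPKM. The 4 cholangiocyte markers summed to 124 to 129 FPKM with Shh and 125 to 128 FPKM with vehicle, with *Krt7* alone at 96.2 to 102 FPKM.

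The pathway was expressed at very high levels in both groups. The 36 genes together took 3.60% ± 0.115 of the summed FPKM with Shh and 3.69% ± 0.024 with vehicle (SD, n = 3 each). *Gapdh*, glyceraldehyde-3-phosphate dehydrogenase, ranked 1 among all 18169 genes. It had 13618, 11794 and 12151 FPKM in Shh replicates 1, 2 and 3, against 13726, 13576 and 13395 FPKM in vehicle replicates 1, 2 and 3. Shh replicates 2 and 3 lay below every vehicle library, while Shh replicate 1 lay within the vehicle range. *Aldoa*, which splits fructose 1,6-bisphosphate, came second among the 36 and 43 among all genes, with a mean of 1832 FPKM over the 6 libraries. *Ldha*, which makes lactate, followed at 1571 FPKM. *Pkm*, which makes pyruvate, and the enolase gene *Eno1* stood at 1209 and 1189 FPKM, and their ranges over the 6 libraries overlapped. Below them came the triose phosphate isomerase gene *Tpi1* at 991 FPKM, the phosphoglycerate kinase gene *Pgk1* at 851, the mutase gene *Pgam1* at 748 and the glucose-6-phosphate isomerase gene *Gpi1* at 219. From *Tpi1* to *Gpi1*, no range reached the next. Thus 9 of the 36 genes lay at 100 FPKM or more, 13 between 10 and 100, 6 between 1 and 10, and 8 under 1.

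The steps that commit glucose to the pathway were carried by far fewer transcripts than the steps below them. The main glucose carrier gene *Slc2a1* (GLUT1) had 89.4, 90.7 and 88.3 FPKM in Shh replicates 1, 2 and 3, against 89.8, 90.4 and 89.4 FPKM in vehicle replicates 1, 2 and 3. Among the 31 genes tested it had the smallest spread over the Shh libraries, with a coefficient of variation of 0.995% with Shh and 0.954% with vehicle in TMM-normalized CPM, counts scaled to library size. *Hk1*, the main hexokinase gene, had 56.0, 63.8 and 57.3 FPKM in Shh replicates 1, 2 and 3, against 60.2, 57.8 and 60.3 FPKM in vehicle replicates 1, 2 and 3, with Shh libraries on both sides of the vehicle range. *Hkdc1*, a hexokinase-like gene, stayed under 0.3 FPKM in all 6 libraries. The 4 hexokinase genes, whose products trap glucose as its phosphate, summed to 80.0 ± 5.22 FPKM with Shh and 78.8 ± 1.61 FPKM with vehicle (SD, n = 3 each). *Pfkl*, the most abundant phosphofructokinase-1 gene, had 67.2, 70.6 and 71.3 FPKM in Shh replicates 1, 2 and 3, against 71.7, 71.8 and 69.7 FPKM in vehicle replicates 1, 2 and 3. The 3 phosphofructokinase-1 genes, which encode the main control point, summed to 106 ± 2.25 FPKM with Shh and 107 ± 1.65 FPKM with vehicle (SD, n = 3 each).

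The groups overlapped in the abundant enzyme genes *Tpi1*, *Pgk1*, *Gpi1*, *Pkm* and *Ldha*. *Tpi1* had 1013, 917 and 970.4 FPKM in Shh replicates 1, 2 and 3, against 1027, 1028 and 989 FPKM in vehicle replicates 1, 2 and 3. *Pgk1* had 857, 817 and 885 FPKM in Shh replicates 1, 2 and 3, against 853, 848 and 848 FPKM in vehicle replicates 1, 2 and 3. The groups overlapped in both, with Shh replicate 2 the lowest library. *Gpi1* had 219, 222 and 211 FPKM in Shh replicates 1, 2 and 3, against 222, 220.2 and 218 FPKM in vehicle replicates 1, 2 and 3. *Pkm* had 1244, 1165 and 1202 FPKM in Shh replicates 1, 2 and 3, against 1217, 1227 and 1199 FPKM in vehicle replicates 1, 2 and 3. *Ldha* had 1586, 1488 and 1582 FPKM in Shh replicates 1, 2 and 3, against 1622, 1576 and 1574 FPKM in vehicle replicates 1, 2 and 3. For *Pkm* and *Ldha*, too, Shh replicate 2 was the lowest and the groups overlapped. *Bpgm*, which makes the 2,3-bisphosphoglycerate that tunes hemoglobin in red cells, lay at 25.6 to 27.0 FPKM with Shh and 25.7 to 26.8 FPKM with vehicle. Among the less abundant genes, the ranges of *Eno3* and *Pfkl*, of *Hk2* and *Pfkm*, and of *Pdk1* and *Pfkp* overlapped, so these neighbours in the order of levels were not separated.

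**Figure D1:**
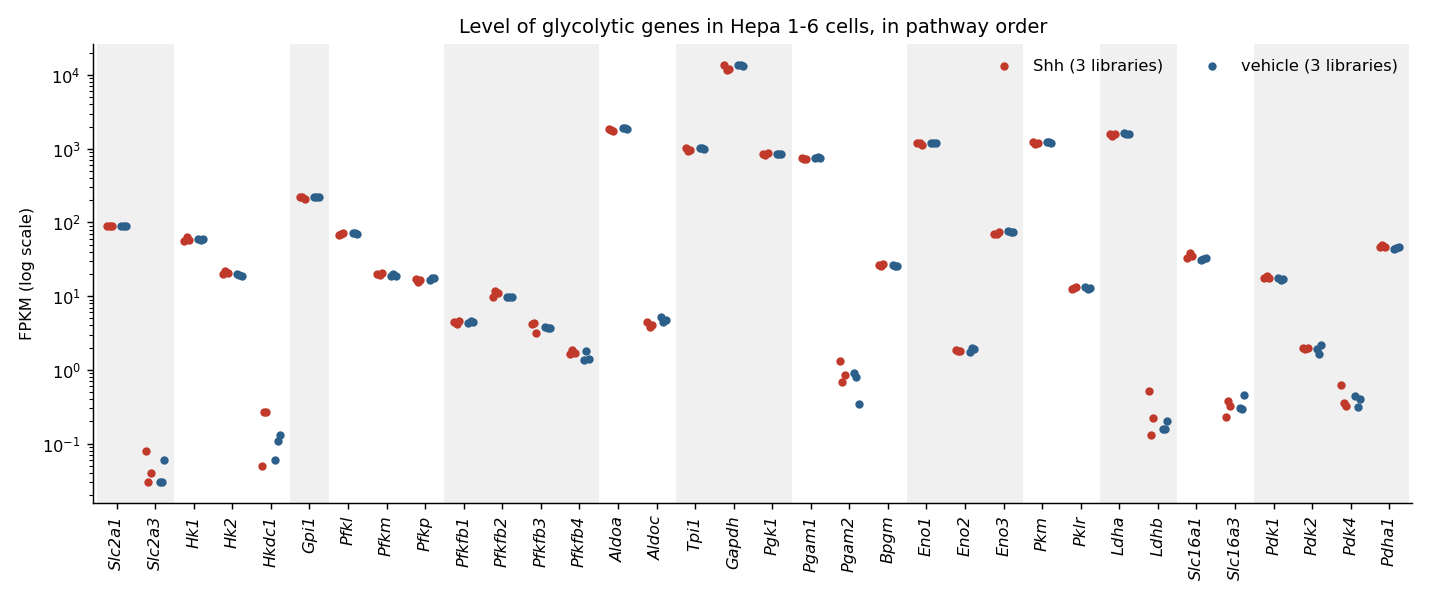
FPKM (vertical axis, log scale) of 34 glycolytic genes in pathway order (horizontal axis), with 1 point for each of the 3 Shh libraries (left of each pair) and the 3 vehicle libraries (right). Shading separates gene families, and *Hk3* and *Pdk3* are not drawn because they are listed at 0 in most libraries. *Gapdh* has at least 11794 FPKM in every library, and within families 1 isozyme is usually well above the others.

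Of the liver forms, *Pklr* was far below *Pkm* and *Slc2a2* was near 0, while that of phosphofructokinase was the most abundant of its step. *Pklr*, the liver and red cell pyruvate kinase gene, had 12.5, 12.9 and 13.3 FPKM in Shh replicates 1, 2 and 3, against 13.4, 12.5 and 12.8 FPKM in vehicle replicates 1, 2 and 3. The ratio of *Pkm* to *Pklr* was 93.6 ± 5.18 with Shh and 94.3 ± 3.72 with vehicle (SD, n = 3 each). *Pkm* gives rise to the M1 and M2 forms by splicing, which counts per gene do not separate. *Slc2a2*, which is not among the 36, lay at 0.18 to 0.25 FPKM with Shh and 0.16 to 0.23 FPKM with vehicle. *Pfkl*, the liver phosphofructokinase gene, was in contrast the main form of its step, with 65.8% ± 1.10 of the summed FPKM of *Pfkl*, *Pfkm* and *Pfkp* with Shh and 66.2% ± 0.694 with vehicle (SD, n = 3 each). The muscle form *Pfkm* and the platelet form *Pfkp* had 20.1 ± 0.583 and 16.2 ± 0.722 FPKM with Shh, and 19.2 ± 0.572 and 17.1 ± 0.592 FPKM with vehicle (SD, n = 3 each).

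Forms tied to muscle, heart, brain or blood cells differed widely in level. *Eno3*, the muscle enolase gene, had 71.3 ± 2.89 FPKM with Shh and 75.3 ± 2.20 FPKM with vehicle (SD, n = 3 each), while *Eno2*, the neuronal form, stayed under 2 FPKM in all 6 libraries. *Eno1* took 94.1% ± 0.354 of the 3 enolase genes with Shh and 94.0% ± 0.138 with vehicle (SD, n = 3 each). *Aldoc*, the brain aldolase gene, stayed under 6 FPKM. *Ldhb*, the heart form, was nearly silent, with 13, 3 and 5 counts in Shh replicates 1, 2 and 3, against 4, 4 and 5 counts in vehicle replicates 1, 2 and 3. *Hk3*, the myeloid hexokinase gene, had 2 counts in Shh replicate 1 and 0 in the other 5 libraries. The muscle mutase gene *Pgam2* had 23, 12 and 15 counts in Shh replicates 1, 2 and 3, against 16, 14 and 6 counts in vehicle replicates 1, 2 and 3. The neuronal glucose carrier gene *Slc2a3* (GLUT3) had 2 to 6 counts with Shh and 2 to 5 counts with vehicle. *Ldhb*, *Hk3*, *Pgam2* and *Slc2a3* were each highest in Shh replicate 1, the library with the highest stromal marker sum, and the part of that in these values was not tested.

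Sequence upstream of the start sites is shown for 3 pairs of genes that do the same job at different levels, *Ldha* and *Ldhb*, *Pkm* and *Pklr*, and the lactate carriers *Slc16a1* (MCT1) and *Slc16a3* (MCT4). Each run is the 250 bases before a start site annotated by RefSeq in GRCm38.p6, read 5′ to 3′ on the strand of the gene. *Ldha*, *Pkm* and *Pklr* have 2 annotated windows each, of which the upstream one is given for *Ldha* and the downstream one for *Pkm* and *Pklr*, and the windows not shown held 0 of the marked letters. Capitals mark the letters ACGTG on either strand (CACGT on the other), a core that hypoxia-inducible factors are known to bind. They also mark CACGTG, the palindrome that holds both, which Myc family factors are known to bind. Sites that depart from these letters were not marked, such as GCGTG, which the *Ldhb* and *Slc16a1* windows hold.
*Ldha*, chr7:46845554-46845803, plus strand: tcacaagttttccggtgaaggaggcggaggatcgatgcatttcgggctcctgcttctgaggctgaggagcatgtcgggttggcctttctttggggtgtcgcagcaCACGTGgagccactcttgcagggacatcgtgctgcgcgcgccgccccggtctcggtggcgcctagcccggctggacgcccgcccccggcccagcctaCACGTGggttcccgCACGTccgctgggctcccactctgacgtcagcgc
*Ldhb*, chr6:142507958-142508207, minus strand: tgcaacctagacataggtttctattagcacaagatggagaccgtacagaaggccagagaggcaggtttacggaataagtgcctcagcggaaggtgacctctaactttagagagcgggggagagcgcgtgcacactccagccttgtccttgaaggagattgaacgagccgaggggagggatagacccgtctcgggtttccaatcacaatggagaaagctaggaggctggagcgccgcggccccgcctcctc
*Pkm*, chr9:59656977-59657226, plus strand: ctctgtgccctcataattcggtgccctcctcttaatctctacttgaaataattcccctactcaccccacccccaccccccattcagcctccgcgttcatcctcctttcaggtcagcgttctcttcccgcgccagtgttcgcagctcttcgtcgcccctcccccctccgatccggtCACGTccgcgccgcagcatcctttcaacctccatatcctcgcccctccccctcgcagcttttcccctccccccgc
*Pklr*, chr3:89136373-89136622, plus strand: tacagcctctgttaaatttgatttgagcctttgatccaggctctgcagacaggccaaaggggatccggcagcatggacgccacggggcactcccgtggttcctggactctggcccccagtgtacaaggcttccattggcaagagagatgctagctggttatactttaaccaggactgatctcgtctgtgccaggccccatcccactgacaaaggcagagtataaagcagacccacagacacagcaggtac
*Slc16a1*, chr3:104638414-104638663, plus strand: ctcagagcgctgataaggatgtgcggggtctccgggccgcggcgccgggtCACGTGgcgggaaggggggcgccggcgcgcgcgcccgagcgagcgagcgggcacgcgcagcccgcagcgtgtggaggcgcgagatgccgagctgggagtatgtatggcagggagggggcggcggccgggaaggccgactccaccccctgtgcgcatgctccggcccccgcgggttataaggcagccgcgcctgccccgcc
*Slc16a3*, chr11:120948817-120949066, plus strand: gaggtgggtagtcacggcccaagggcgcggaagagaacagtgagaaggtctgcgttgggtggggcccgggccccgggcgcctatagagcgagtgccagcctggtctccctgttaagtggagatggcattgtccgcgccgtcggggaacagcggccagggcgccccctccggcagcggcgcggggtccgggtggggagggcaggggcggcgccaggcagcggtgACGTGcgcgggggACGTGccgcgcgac

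The *Ldha* window held the marked letters in 3 places, 2 of them as CACGTG, and the *Ldhb* window held them in 0. The *Pkm* window held them in 1 place and the *Pklr* window in 0, while both carrier windows held them, in 1 place in *Slc16a1* and 2 in *Slc16a3*. *Slc16a1* had 32.6, 39.0 and 34.7 FPKM in Shh replicates 1, 2 and 3, against 31.4, 32.3 and 33.4 FPKM in vehicle replicates 1, 2 and 3, and *Slc16a3* stayed under 0.5 FPKM in all 6 libraries. Over the 35 genes with a window, 19 of 55 windows (34.5%) held ACGTG on either strand, against 16.6% of the 32851 windows of all genes, and 6 of 55 (10.9%) held CACGTG, against 6.0% of all windows. The letters TATAAA, on either strand, were in 3 of 55 windows (5.5%), against 12.4% of all windows. Some windows of 1 gene overlap, and these counts describe letters only.

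No glycolytic gene passed the threshold between Shh and vehicle. Estimated counts with TMM factors entered the quasi-likelihood test of edgeR, and p-values were adjusted over all 12286 genes. Here 0 of the 31 genes tested passed an adjusted p under 0.05, as did 0% of all genes (0 by DESeq2 as well). At an unadjusted p under 0.05 in edgeR, 3 of 31 were lower with Shh, against 5.56% of all genes, and 0 of 31 were higher, against 4.83% of all genes. DESeq2 gave 2 lower and 0 higher. Of the 31, 20 had a log2 fold change below 0, against 48.8% of all genes, and the median was -0.034, against 0.0028 over all genes. The log2 fold changes were under 0.1 in size for 22 of the 31 genes, and for 24 of them the 95% interval lay within -0.3 and 0.3.

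The aldolase genes and *Gapdh* were the 3 with an unadjusted p under 0.05. *Aldoc* had 11.7, 9.73 and 10.6 TMM-normalized CPM in Shh replicates 1, 2 and 3, against 13.8, 11.9 and 12.4 CPM in vehicle replicates 1, 2 and 3. On this scale all Shh libraries lay below all vehicle libraries, which held for 4 of the 31 genes and for 8.67% of all genes. The log2 fold change of *Aldoc* was -0.25 (standard error 0.091, adjusted p = 0.469 from edgeR), with 202 to 236 counts in the Shh libraries and 239 to 277 in the vehicle libraries. *Gapdh* had 17329, 14577 and 15365 CPM in Shh replicates 1, 2 and 3, against 17618, 17357 and 17071 CPM in vehicle replicates 1, 2 and 3. Its log2 fold change was -0.14 (standard error 0.056, adjusted p = 0.469 from edgeR), and the spread was wider with Shh, a coefficient of variation of 8.99% against 1.58% with vehicle. *Aldoa* had 2715, 2534 and 2508 CPM in Shh replicates 1, 2 and 3, against 2824, 2782 and 2691 CPM in vehicle replicates 1, 2 and 3. Shh replicate 1 lay inside the vehicle range, and the log2 fold change was -0.097 (standard error 0.043, adjusted p = 0.477 from edgeR). These differences were larger when Shh replicate 1 was left out, and *Gapdh* then passed (-0.21, adjusted p = 0.0454 from edgeR, against 0.0454 to 0.847 over all alternatives), with 1.57% of all genes then called. *Gapdh* was at -0.086 without Shh replicate 2.

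The other 3 genes without overlap between the groups in CPM each had a small difference. *Eno1* had 2079, 1997 and 1959 CPM in Shh replicates 1, 2 and 3, against 2109, 2107 and 2080 CPM in vehicle replicates 1, 2 and 3. *Pgam1* had 1350.1, 1279 and 1292 CPM in Shh replicates 1, 2 and 3, against 1350.7, 1382 and 1357 CPM in vehicle replicates 1, 2 and 3. *Slc2a1* had 226.1, 223 and 222 CPM in Shh replicates 1, 2 and 3, against 229.6, 230.5 and 226.3 CPM in vehicle replicates 1, 2 and 3. In all 3 the highest Shh library nearly touched the lowest vehicle library. In FPKM the groups overlapped in all 3. Shh replicate 1 was above vehicle replicate 3 in *Eno1* (1199 against 1197 FPKM) and above vehicle replicate 1 in *Pgam1* (754 against 748 FPKM). For *Slc2a1*, Shh replicate 2 was the highest library, at 90.7 FPKM. The log2 fold changes were -0.061 for *Eno1* and for *Pgam1* and -0.032 for *Slc2a1* (standard errors 0.039, 0.039 and 0.037, adjusted p = 0.573, 0.576 and 0.765 from edgeR). In 0 of the 31 genes did all Shh libraries lie above all vehicle libraries in CPM, against 6.79% of all genes.

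*Pkm*, *Pklr*, *Ldha* and *Hk2* did not differ detectably with Shh. *Aldoa*, with an unadjusted p under 0.05 in edgeR, and *Slc2a1*, whose groups did not overlap in CPM, are given above. *Pkm* was at -0.040 (95% interval -0.13 to 0.054, adjusted p = 0.753 from edgeR). *Pklr* was at -0.014 (95% interval -0.13 to 0.10, adjusted p = 0.938 from edgeR). *Ldha* was at -0.061 (95% interval -0.16 to 0.036, adjusted p = 0.625 from edgeR). *Hk2*, the insulin- and tumor-linked hexokinase gene, was at 0.078 (95% interval -0.019 to 0.17, adjusted p = 0.533 from edgeR). Taken as lists, the liver isozymes *Pfkl*, *Pfkfb1* and *Pklr* all had a log2 fold change below 0 (3 of 3, median -0.038), but without Shh replicate 2 only *Pfkl* did, with *Pfkfb1* at 0.020 and *Pklr* at 0.0013. Of the widely expressed or tumor isozymes, 7 of the 10 tested lay below 0 (median -0.037), and of the muscle, heart or brain isozymes 3 of 6 (median -0.017). At an unadjusted p under 0.05, 0 of the liver isozymes, 1 of the widely expressed or tumor isozymes and 1 of the muscle, heart or brain isozymes were lower with Shh (5.56% of all genes), and 0 were higher in each list (4.83% of all genes). Lists this short cannot be set apart from those shares. The liver and the widely expressed lists thus had nearly the same median, and a p above the threshold does not show equal levels.

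Within families, the share of 1 isozyme in the summed FPKM was nearly the same in both groups. Of the 8 families compared, the hexokinases alone separated the groups. *Hk2* made up 26.1%, 25.4% and 26.3% of hexokinase FPKM in Shh replicates 1, 2 and 3, against 24.8%, 24.8% and 23.8% in vehicle replicates 1, 2 and 3, and *Hk1* made up nearly all of the rest. The difference was 1.46 percentage points, with an exact two-sided permutation p of 0.1, the smallest that 3 libraries against 3 allow, and 0.533 after adjustment over the 8 families. *Pklr* took 1.06% ± 0.0562 of pyruvate kinase FPKM with Shh and 1.05% ± 0.0407 with vehicle (SD, n = 3 each, exact permutation p = 0.8). *Pfkfb1*, the liver gene for the enzyme that makes and removes fructose 2,6-bisphosphate, the activator of phosphofructokinase, took 22.2%, 18.8% and 22.5% of its family in Shh replicates 1, 2 and 3, against 22.4%, 23.3% and 23.1% in vehicle replicates 1, 2 and 3. The low value was that of Shh replicate 2, in which *Pfkfb2* was high. The differences of the other 5 shares lay between -0.446 and 0.159 percentage points, the highest being that of *Eno1*.

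**Figure D2:**
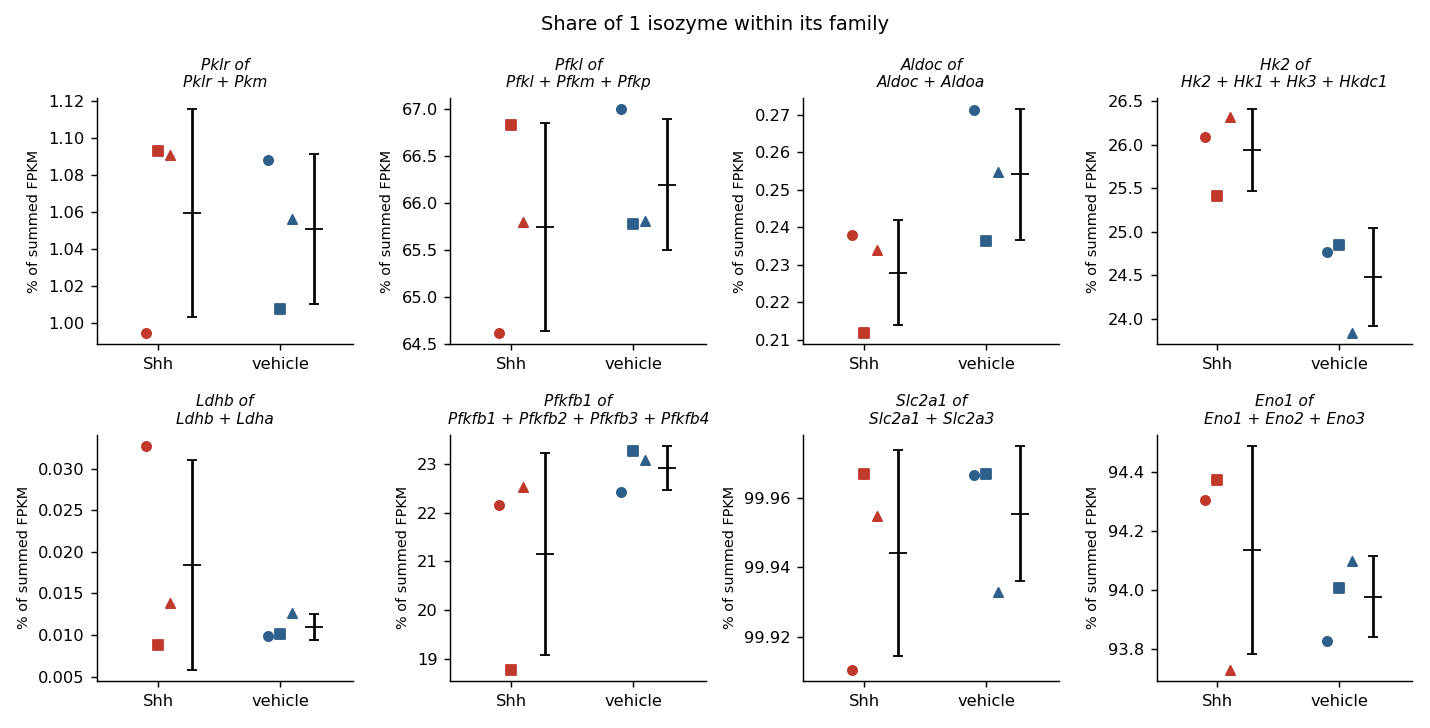
Share of 1 isozyme in the summed FPKM of its family (vertical axes, percent, which do not start at 0) in Shh (left) and vehicle (right) libraries, with circles, squares and triangles for replicates 1, 2 and 3 and the mean and SD of 3 libraries in black. The *Hk2* share is above 25% in each Shh library and below 25% in each vehicle library, and in the other 7 panels the groups overlap.

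The sign of the log2 fold change is given next by role, as a description without a test between roles. For the enzymes from hexokinase to pyruvate kinase, 15 of the 18 tested genes lay below 0 (median -0.058), while 3 of the 4 *Pfkfb* genes and all 4 tested genes of pyruvate dehydrogenase control lay above 0. The signs of the *Pfkfb* genes and of the genes of pyruvate dehydrogenase control were not stable. Without Shh replicate 1, *Pdk2* was at -0.0047, *Pdk4* at -0.21 and *Pfkfb3* at -0.033, so that 2 of the 4 genes of pyruvate dehydrogenase control and 2 of the 4 *Pfkfb* genes lay above 0. Without Shh replicate 2, *Pfkfb3* was at -0.0016 and 13 of the 18 enzyme genes lay below 0 (median -0.049). With an offset for transcript length, *Pdk1* was at -0.0066 and *Pfkfb3* at -0.0042, and 14 of the 18 enzyme genes lay below 0 (median -0.047). *Pfkfb2*, the form known from heart, had 62.7, 72.1 and 67.1 CPM in Shh replicates 1, 2 and 3, against 62.1, 62.7 and 62.4 CPM in vehicle replicates 1, 2 and 3. Shh replicates 2 and 3 were above the vehicle libraries and Shh replicate 1 was level with them. *Pfkfb3*, the inducible form with the strongest kinase activity, had 19.1, 18.4 and 14.4 CPM in Shh replicates 1, 2 and 3, against 17.0, 16.7 and 16.6 CPM in vehicle replicates 1, 2 and 3, so that the Shh libraries lay on both sides of the vehicle range. Of the kinases that switch off pyruvate dehydrogenase, *Pdk1* was the main form, with 17.7, 18.8 and 17.5 FPKM in Shh replicates 1, 2 and 3, against 17.7, 16.6 and 16.9 FPKM in vehicle replicates 1, 2 and 3. *Pdk2* lay at 1.92 to 2.00 FPKM with Shh and 1.65 to 2.18 FPKM with vehicle, and *Pdk4*, the fasting-induced form, stayed under 0.7 FPKM. *Pdk3* was counted once in Shh replicate 1 and once in vehicle replicate 2. *Pdha1*, which encodes a subunit of pyruvate dehydrogenase itself, had 46.6, 48.7 and 46.4 FPKM in Shh replicates 1, 2 and 3, against 43.9, 45.7 and 46.0 FPKM in vehicle replicates 1, 2 and 3. The lactate carrier gene *Slc16a1* had 143.6, 167 and 151 CPM in Shh replicates 1, 2 and 3, against 139, 143 and 147 CPM in vehicle replicates 1, 2 and 3, the highest again being Shh replicate 2.

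Library by library, the enzyme genes lay lower in 2 of the Shh libraries. Relative to the vehicle mean on the log2 CPM scale, the median of the 18 enzyme genes was -0.014, -0.099 and -0.072 in Shh replicates 1, 2 and 3, against 0.021, 0.0073 and -0.022 in vehicle replicates 1, 2 and 3. In Shh replicate 2, 15 of the 18 lay below the vehicle mean, and the same number did in vehicle replicate 3. The median of all genes was between -0.0018 and 0.0013 in the 6 libraries.

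**Figure D3:**
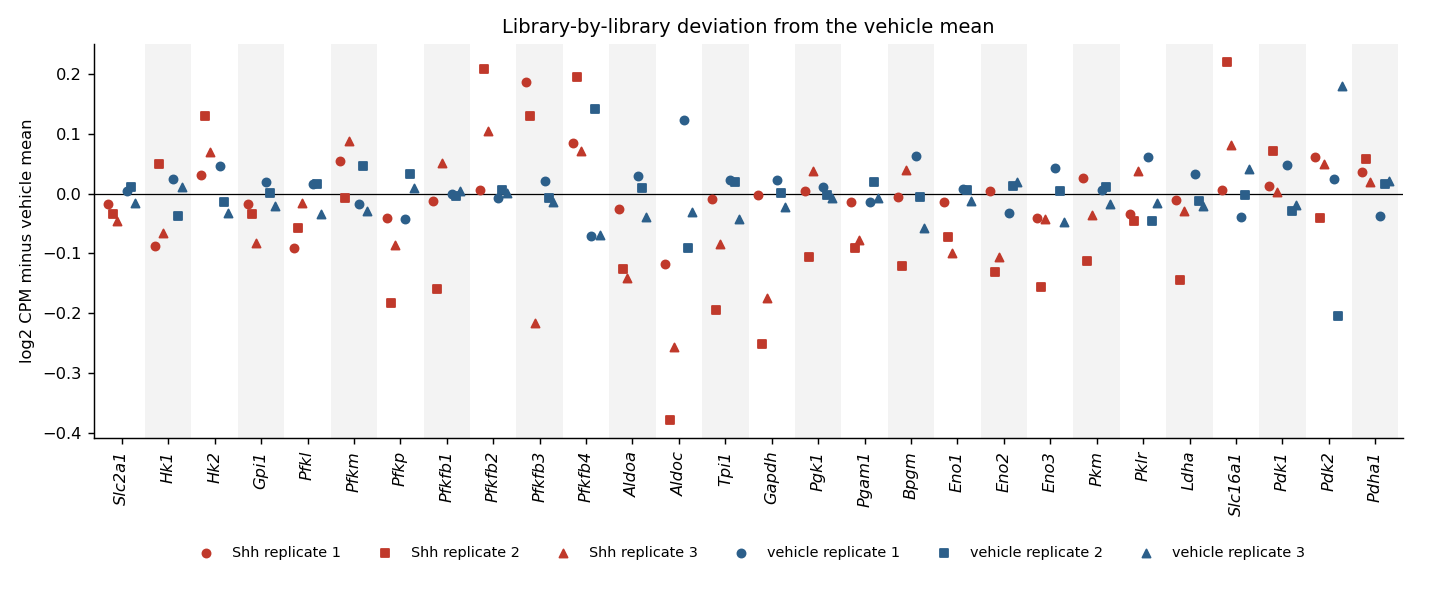
Log2 CPM minus the mean of the vehicle libraries (vertical axis) for 28 glycolytic genes (horizontal axis), with 1 marker per library, Shh in red and vehicle in blue. *Pgam2*, *Slc16a3* and *Pdk4*, whose libraries spread widely, were tested but are not drawn. *Aldoc*, *Gapdh* and *Tpi1* lie lowest in Shh replicate 2, while *Pfkfb2* and *Slc16a1* lie highest in it.

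The log2 fold change moved with transcript length, in the glycolytic genes and in the whole table. Its rank correlation with length was 0.535 over 11471 genes with a length and 0.475 over 30 glycolytic genes, a description across genes that share the same libraries, and the part of length in the differences was not tested beyond the offset given here. Of the 16 glycolytic genes shorter than the median of 2690 bases, 14 lay below 0 with a median of -0.061, and all genes below that length had a median of -0.048. Of the 14 at or above it, 5 lay below 0 with a median of 0.041, against 0.044 for all genes at or above that length. *Gapdh* (1267 bases), *Aldoa* (1459 bases) and *Tpi1* (1552 bases) are short, while *Hk2* (5464 bases), *Pfkfb2* (6336 bases) and *Slc16a1* (4381 bases) are long. Within libraries, the rank correlation of length with the deviation from the vehicle mean was 0.134, 0.614 and 0.356 in Shh replicates 1, 2 and 3, against -0.0433, -0.107 and 0.135 in vehicle replicates 1, 2 and 3. With an offset for length, *Gapdh* was at -0.0765, *Aldoa* at -0.045, *Tpi1* at -0.049, *Hk2* at 0.015, *Pfkfb2* at 0.037 and *Slc16a1* at 0.057, while *Aldoc* (2632 bases) was at -0.26. Some long genes below 0 moved further from 0. *Hk1* (3756 bases) went from -0.034 to -0.068, *Pfkl* (3690 bases) from -0.055 to -0.087 and *Pfkp* (3105 bases) from -0.10 to -0.12. The median of the 30 with the offset was -0.021 with 19 below 0, against 52.1% of all genes below 0. By edgeR, 4 of the 30 were lower with an unadjusted p below 0.05, against 3 of the 31 without the offset. Over all genes, 697 had such a p in either direction with the offset and 1277 without it. When Shh replicate 2 was left out, 17 of the 31 lay below 0 and their median was -0.0051.

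**Figure D4:**
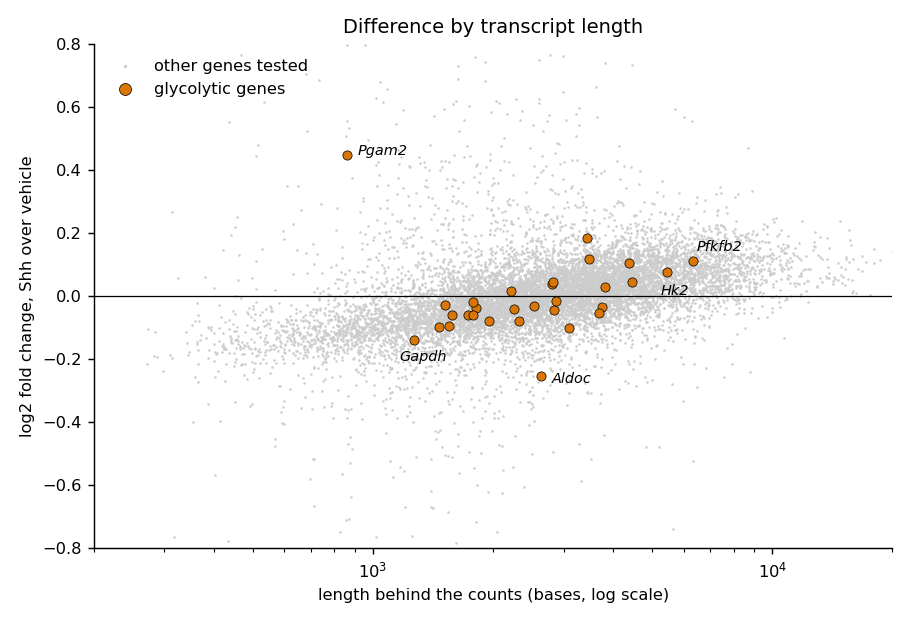
Log2 fold change of Shh over vehicle (vertical axis) by the length behind each gene's counts in bases (horizontal axis, log scale), with 30 glycolytic genes in orange and the other genes tested in grey. 40 genes lie outside the axes. Of the 16 shorter than the all-gene median of 2690 bases, 14, such as *Gapdh*, sit below 0. Of the 14 at or above it, 5, such as *Pfkp* and *Pfkl*, also sit below 0, while *Hk2* and *Pfkfb2* sit above 0. *Aldoc*, *Pfkp* and *Pfkl* lie below the trend of all genes.

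**Figure D5:**
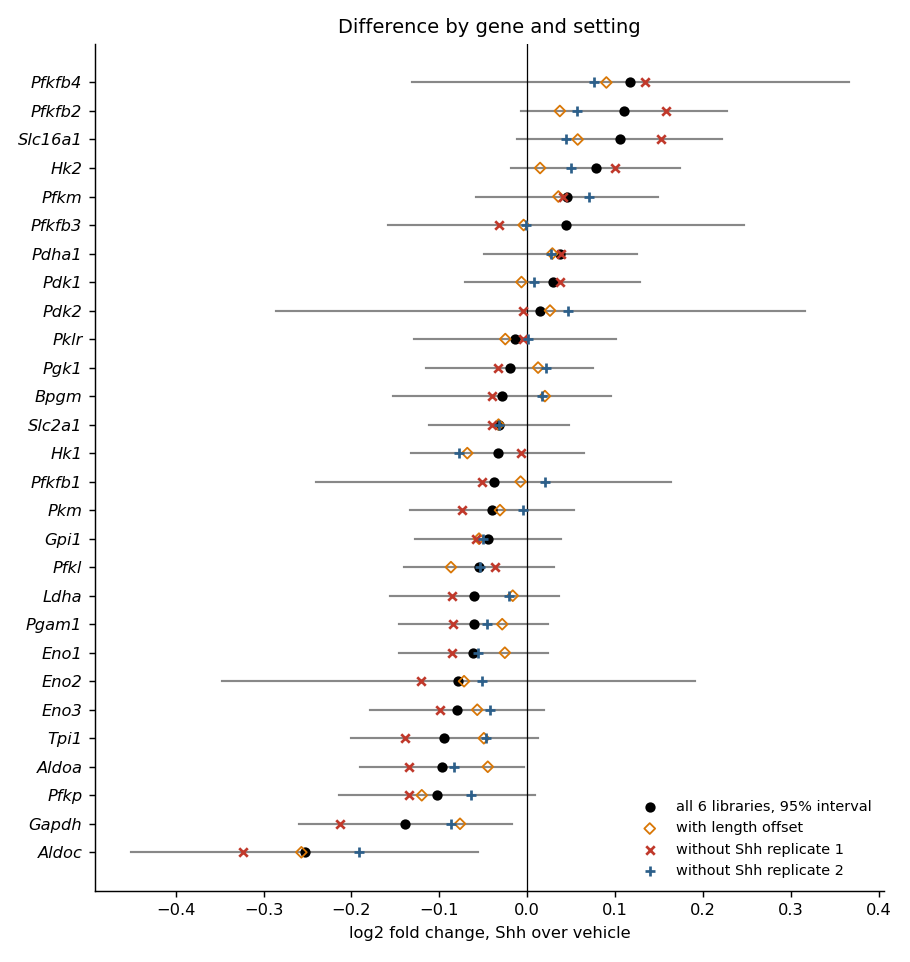
Log2 fold change of Shh over vehicle (horizontal axis) for 28 glycolytic genes with the 95% interval in the fit of all 6 libraries, and the same value with a length offset, without Shh replicate 1 and without Shh replicate 2. Tested but not drawn are *Pgam2* (0.45, 95% interval -0.43 to 1.32), *Slc16a3* (-0.21, -0.92 to 0.50) and *Pdk4* (0.18, -0.48 to 0.85). Their intervals are wide, and *Pdk4* was at -0.21 without Shh replicate 1. Leaving out Shh replicate 1 moves *Gapdh* to -0.21 and leaving out Shh replicate 2 moves it to -0.086, while *Aldoc* stays between -0.32 and -0.19 in the 4 settings drawn.

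Reads of near-identical copies could be shared among genes. The counts of 19 of the 36 genes were not whole in at least 1 library, *Gapdh*, *Aldoa* and *Gpi1* in all 6, as happens when reads are divided among candidate origins. *Eno1* had whole counts in each vehicle library and not in any Shh library, and its near-identical copy *Eno1b* had 6.24, 9.08 and 4.47 estimated counts in Shh replicates 1, 2 and 3 and 0 in each vehicle library. As these are a few reads beside 39917 to 42301 for *Eno1*, the assignment of *Eno1b* is uncertain. By position in RefSeq, 10 of the 36 genes overlap another gene of the table, among them *Tpi1* with *Spsb2*, *Eno3* with *Pfn1*, *Pklr* with *Hcn3* and *Pfkfb2* with *Yod1*, and reads from the shared stretch could be counted for either.

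Among other genes of the pathway, 39 were listed, 38 had a row and 28 were tested, of which 0 passed an adjusted p under 0.05 in edgeR. At an unadjusted p under 0.05, 2 of the 28 were higher (4.83% of all genes) and 1 was lower (5.56% of all genes), counts near the share of all genes. *Pdpr*, a regulatory subunit of pyruvate dehydrogenase phosphatase, had 12.9, 13.2 and 12.1 CPM in Shh replicates 1, 2 and 3, against 8.73, 11.7 and 11.1 CPM in vehicle replicates 1, 2 and 3 (log2 fold change 0.27, standard error 0.10). *Slc2a9*, a urate and hexose carrier gene, had 7.18, 7.13 and 8.29 CPM in Shh replicates 1, 2 and 3, against 5.99, 6.28 and 6.68 CPM in vehicle replicates 1, 2 and 3 (log2 fold change 0.25, standard error 0.11). In CPM, all Shh libraries lay above all vehicle libraries in both, and in *Pdhx* and *Dlat* of the pyruvate dehydrogenase complex. These were 4 of the 28 genes, against 6.79% of all genes. In *Gapdhs* all Shh libraries lay below in CPM, 1 of the 28 against 8.67% of all genes. *Pdhx*, *Dlat* and *Gapdhs* are named here because of this pattern, after their values were seen. *Pgp*, which removes a toxic by-product of glycolysis, was at -0.11 (standard error 0.048). The adjusted p of *Pdpr*, *Slc2a9* and *Pgp* was 0.469 from edgeR. For *Pdhx*, *Dlat* and *Gapdhs* it was 0.573, 0.660 and 0.841 from edgeR. The median of the 28 was 0.0080, with 16 above 0 and 12 below. *Bsg*, the chaperone of the lactate carriers, was the most abundant of them, with 651 ± 29.5 FPKM with Shh and 680 ± 15.0 FPKM with vehicle (SD, n = 3 each).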

How the data were processed

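The authors sequenced poly(A) RNA of Hepa 1-6 cells, 3 libraries with Shh and 3 with vehicle, as single-end reads. Deposited were estimated counts for each gene (36.4% of values above 0 were not whole) and FPKM, scaled by the authors for transcript length and library total. They also deposited TPM and group means, which were not used here. The submitters' processing notes name Bowtie2. Counting tool, genome build and annotation: no source used here gives them. Where the series text differs from the sample labels, the labels were followed.

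In edgeR 4.0.16 under R 4.3.3, rounded counts passed filterByExpr (count of 10 or more, total of 15 or more), received TMM factors and were compared by the quasi-likelihood test with treatment as its only factor. P-values were adjusted by Benjamini-Hochberg over all genes tested, with a threshold of 0.05. FPKM were used to compare genes and to recover each gene's length (where FPKM was at least 0.5). Shares of isozymes were compared by exact permutation. Alternatives were DESeq2 1.42.0, upper-quartile factors, other filters, the replicate block, a length offset (per library, a spline with 5 degrees of freedom), leaving out each library, and limma 3.58.1 on log2(FPKM + 0.1) or log2(FPKM + 1). The 36 genes and the lists were chosen with earlier results of these data known. Values per library are given for the most abundant isozyme of each family and for single-gene steps. Full statistics are given for genes with an unadjusted p under 0.05 or no overlap between groups in CPM, and for *Slc2a1*, *Hk2*, *Pkm*, *Pklr* and *Ldha*. Of 18169 gene IDs, 18117 were found in RefSeq. Some liver isozymes are not reported here.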

Additional observations from a re-analysis of the deposited data

How the results depend on the processing

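The count of 0 genes called by edgeR (1277 at an unadjusted p under 0.05, and 0 called and 814 at that p by DESeq2) became 1 without a filter or with the length offset, 5 with the replicate block and length offset, and 0 to 195 on leaving out a library, the 195 coming without Shh replicate 1. Among the 36 genes the count of 0 became 1 (*Gapdh*) without Shh replicate 1 and stayed 0 in the other 14 alternatives, and it stayed 0 for the other genes of the pathway in all 15. The median of -0.034 ran from -0.042 to -0.0051 with each library left out in turn (-0.0051 without Shh replicate 2), and 17 to 23 genes lay below 0 over all alternatives. Genes lower at an unadjusted p under 0.05 numbered 0 to 6, with 6 lower and 4 higher without Shh replicate 1. *Pklr* was at 0.0013 without Shh replicate 2 and 0.017 without vehicle replicate 1 (-0.041 to 0.017 on leaving out a library), and the cause was not tested. The direction of *Aldoc*, *Gapdh*, *Aldoa*, *Eno1*, *Pgam1*, *Slc2a1*, *Hk2*, *Pkm* and *Ldha* held in all 15. Among the rest, *Pgk1* and *Bpgm* lay above 0 with the length offset (0.012 and 0.020) and without Shh replicate 2 (0.021 and 0.016). Relative to all genes, whose median moved by under 0.03, FPKM on the log scale gave 18 of 31 below 0, against 40.2% of all genes (40.0% with a pseudocount of 1).

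On leaving out a library, the difference in share, in percentage points, ran from -0.0129 to 0.0412 for *Pklr*, with the sign changing to -0.0081, -0.0068 and -0.0129 without Shh replicate 2, Shh replicate 3 and vehicle replicate 2, from -0.985 to 0.118 for *Pfkl* and from -0.0228 to 0.0054 for *Slc2a1* (both changing sign without Shh replicate 1), from 1.13 to 1.72 for *Hk2*, from 0.0403 to 0.362 for *Eno1* and from -2.45 to -0.584 for *Pfkfb1*. Shares from counts per length could not be had for the *Hk2* and *Slc2a1* families, as some members had no length. Pairing by replicate number was not borne out, since deviations from the group means correlated at -0.040, -0.054 and 0.098 within the pairs and some libraries correlated better with another number. With the replicate block 0 genes were called (1363 at an unadjusted p under 0.05). The 1277 genes at that p became 697 with the length offset, 843 with both, and 609 to 2610 when a library was left out.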
